A study of Mus musculus with 24 samples.

Results

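Mouse embryonic stem (ES) cells that had lost both Smchd1 and Dux (Double KO) were compared with wild-type ES cells (WT) over all genes by RNA sequencing. The comparison used 3 Double KO samples with 1 library each and 3 WT samples with 2 technical runs each, which were averaged. It thus rests on 6 of the 18 biological samples and 9 of the 24 libraries of the series. Of the 37310 gene entries in the table, 16200 passed a filter on low values and were tested. Double KO cells carry knockouts of Smchd1 and of Dux, and WT cells carry neither. Cells with the Smchd1 knockout alone (Smchd1 KO) and with the Dux knockout alone (Dux KO), 3 samples each from the same table, are set beside them where they bear on a result. All cells were grown without feeder cells, on gelatin, in medium with serum and LIF. The alleles, the strain and whether replicates are separate clones are not given in the sources used here. The design text calls the 3 samples of a genotype biological replicates.

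SMCHD1, a noncanonical SMC protein bound to chromatin, helps to keep genes silent on the inactive X chromosome and at imprinted and clustered loci. DUX is a transcription factor with a pair of homeodomains that activates the programme of the 2-cell embryo, which includes the Zscan4 zinc finger genes and the Usp17-like deubiquitinase genes. In ES cell cultures these genes are active in a small share of the cells, which resemble the 2-cell embryo for a short time. The comparison asks how expression differs from WT when the silencing factor and the activator of the 2-cell programme are both lost.

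Levels are the deposited values in CPM (counts scaled to the library size), and changes are differences of log2(CPM + 0.5), which understate the change of genes with few reads. Tests are two-sided with limma, in a fit to all 4 genotypes of the table, with p-values adjusted by Benjamini and Hochberg over all tested genes and a threshold of 0.05. Means are given with their SD over 3 samples. In a list of 3 values, the order is that of the replicates.

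Libraries held 16957263 to 74448358 gene reads in WT and 14828776 to 17247162 in Double KO. The defining ES cell markers were present in every sample: Pou5f1 stood at 685, 668 and 646 CPM in WT and 364, 375 and 623 CPM in Double KO, and Sox2 at 417, 412 and 429 CPM in WT and 256, 367 and 505 CPM in Double KO. WT replicates differed from each other about as little as technical runs of 1 replicate, with noise ratios (the squared difference in units of counting error) of 1.31 to 2.04 between replicates and 1.53 to 1.80 between runs. Their spread, and the p-values that rest on it, may thus be technical. The median SD of a gene was 0.05 on the log2 scale in WT and 0.31 in Double KO. The Double KO replicates also differed from each other. Replicate 1 had the highest summed level of endoderm genes, close to that of 1 Smchd1 KO sample. Replicate 2 was closer to Dux KO replicate 2 than to any sample of its own genotype (a noise ratio of 5.29, against 13.8 to 23.6 within Double KO). Replicate 3 was closer to every WT run (10.9 to 14.7) than to the other Double KO samples (22.1 and 23.6). It also had shifted levels over whole chromosomes. WT and Smchd1 KO samples had 2 technical runs each, and Dux KO and Double KO samples had 1 library each. Which libraries were sequenced together is not given in the sources used here. Sequencing arrangement and genotype thus cannot be told apart in the comparison with WT. In whole cultures, fewer cells of a type and less RNA per cell cannot be told apart either.

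The targeted genes check the labels. Smchd1 (ENSMUSG00000024054.5, chromosome 17) stood at 207, 203 and 207 CPM in WT, 71.0, 78.2 and 87.9 CPM in Double KO, 174, 191 and 213 CPM in Dux KO and 46.2, 76.5 and 58.5 CPM in Smchd1 KO. All Double KO values lay below all WT values, and the mean was 0.384 of the WT mean. Smchd1 fell by 1.38 ± 0.16 (SE) on the log2 scale (limma, adjusted p = 0.00643). Transcripts of Smchd1 were thus still present in Double KO, and the deleted part of the gene is not given in the sources used here. The call was lost without WT replicate 1 (limma, adjusted p = 0.0665) or WT replicate 3 (adjusted p = 0.0561).

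Dux itself was too low for a check. The entry named Dux (ENSMUSG00000058537.2, chromosome 10) had 0.0410, 0.113 and 0.141 CPM in WT and 0, 0.245 and 0 CPM in Double KO, from 20 and 4 reads. Its neighbour in the table's naming, Gm10807 (ENSMUSG00000075046.3), which GENCODE M21 calls Duxf3, had 0.0522, 0.147 and 0.0660 CPM in WT and 0.0619, 0.245 and 0.0594 CPM in Double KO, from 17 and 6 reads. The related gene Duxbl had no reads in WT and 1 read in Double KO. The filter removed all 3, so none has a test.

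Of 37 tested genes of the 2-cell embryo, whose programme DUX activates, 15 fell in Double KO and 22 did not pass. Over all genes, 255 of 16200 passed the test (1.57%), with 111 higher (0.685%) and 144 lower (0.889%) in Double KO. The largest falls were those of Zscan4d, Usp26, Gm8994 and Zscan4c, and the largest rises were those of the prostaglandin synthase gene Ptgs2, the collagen gene Col3a1, the caveolin gene Cav1 and the X-linked ubiquitin ligase gene Mid1. At least a 2-fold change was found for 116 of the 255. The median change of all tested genes was -0.04, with 45.2% of changes positive.

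The number of calls depended on the libraries in the fit. It was 2, 10 and 2 without WT replicate 1, 2 or 3, 83 and 132 without Double KO replicate 1 or 2, and 3006 without Double KO replicate 3. At an unadjusted p under 0.05, 3743 genes passed. The split between higher and lower genes also moved with the tool and with the WT run used. With edgeR on the recovered reads it was 373 higher and 182 lower, and with DESeq2 1158 and 850. Limma gave 175 and 347 with technical run 1 alone for WT, and 83 and 74 with run 2 alone. Among 43 named genes past the test, only Zscan4d and Gm8994 stayed past it whichever 1 replicate was left out, and none changed direction in any fit.

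**Figure D1:**
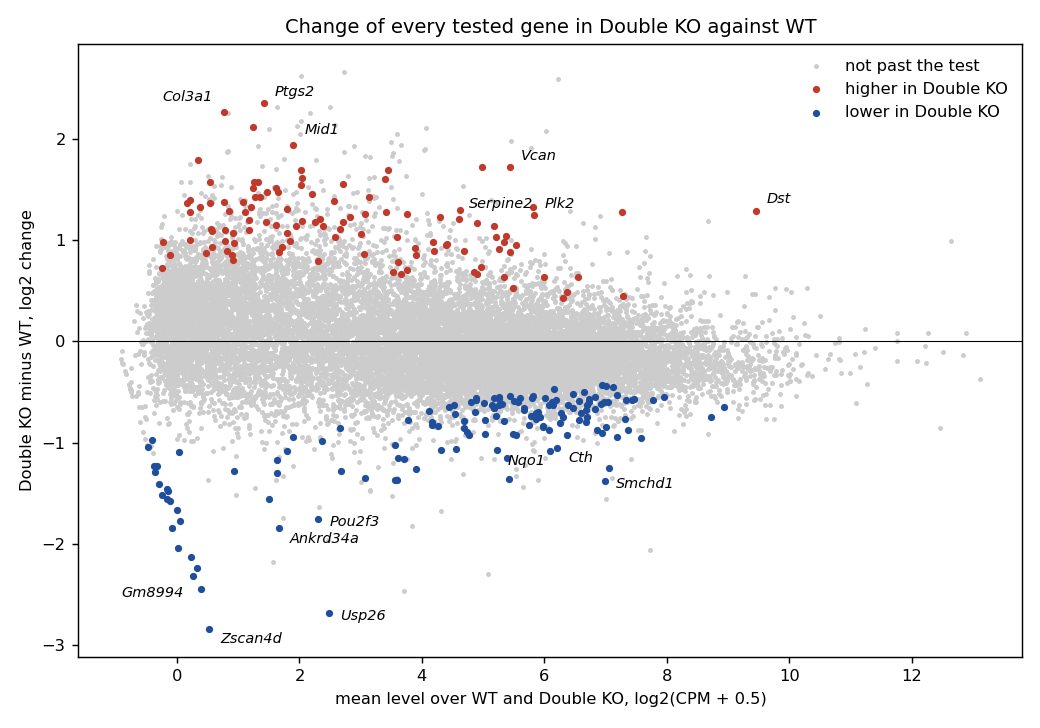
Change of each of the 16200 tested genes in Double KO against WT (vertical axis, log2 scale) by mean level over both genotypes (horizontal axis, log2 of CPM + 0.5). Red points mark the 111 genes that were higher and blue points the 144 that were lower by limma, and grey points did not pass. The chain of blue points at the lower left holds Zscan4d (-2.84), Gm8994 (-2.45) and other 2-cell-stage genes with few reads.

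Of 61 entries of the 2-cell-stage list in the table, 37 passed the filter, and 24 of these had a mean of at least 0.5 CPM in WT or Double KO. The other 13 were below that in both. Of the 37, 15 fell, none rose and 22 did not pass, against 0.889% of all genes that fell. The median change was -0.80, or -1.45 with members without reads in Double KO set to the limit that 3 reads over the group allow, against -0.04 for all genes. In 29 of the 37, all Double KO values lay below all WT values, which was so for 21.0% of all tested genes. The Zscan4 genes, the Usp17-like and Dub genes, and Gm5662, Gm8300 and BB287469 belong to families with near-identical copies. Reads may be split between copies by the authors' counting, so the level of a single copy is uncertain.

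The Zscan4 genes encode zinc finger proteins of the 2-cell embryo that act at telomeres. Zscan4d (ENSMUSG00000090714.1, chromosome 7) stood at 3.65, 3.14 and 3.26 CPM in WT and 0, 0 and 0.119 CPM in Double KO. Only 2 reads remained in Double KO against 705 in WT, a ratio of 83.9 with a 95% counting interval of 23.1 to 694. It fell by 2.84 ± 0.27 (SE) on the log2 scale (limma, adjusted p = 0.00178). Zscan4c, from 2.46, 1.97 and 2.15 CPM in WT to 0, 0.0612 and 0.0594 CPM in Double KO, fell by 2.32 (limma, adjusted p = 0.00643). Zscan4e had 1.62, 1.47 and 1.604 CPM in WT and no reads in Double KO, which makes it at least 25.8-fold lower, and the pseudogene Zscan4-ps2, with 1.41, 1.27 and 1.19 CPM in WT and no reads in Double KO, was at least 20.5-fold lower. Zscan4f and Zscan4b also fell (limma, adjusted p = 0.00871 and 0.0262). All 6 entries were already low in WT, and a few reads or none were left in Double KO.

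The promoters of 4 Zscan4 genes are shown because these genes moved together and are known DUX targets. The pattern GATTNNATC (on the other strand GATNNAATC), a core of the kind of site reported for mouse DUX, was searched on both strands in windows from 250 bases before to 50 after each RefSeq gene start (GRCm38.p6). This form of the pattern was chosen after a longer form had been searched in the same windows. It was found in 518 of 32851 windows (1.58%). Of the 37 tested 2-cell-stage genes, 24 had a window, and 6 of these held a match, among them all 4 of the Zscan4 genes with a window. The match, in capitals, lay between 82 and 124 bases before the start in these 4 genes. A match is a description of the sequence and does not show binding. Each line gives the gene, its place and strand and 89 bases, 5′ to 3′ in the direction of the gene:
Zscan4b, chr7:10905092-10905180, minus strand: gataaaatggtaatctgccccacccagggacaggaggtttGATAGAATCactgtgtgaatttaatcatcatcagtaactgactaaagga
Zscan4c, chr7:11005592-11005680, plus strand: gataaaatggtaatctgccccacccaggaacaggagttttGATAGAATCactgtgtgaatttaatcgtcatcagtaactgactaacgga
Zscan4d, chr7:11166224-11166312, minus strand: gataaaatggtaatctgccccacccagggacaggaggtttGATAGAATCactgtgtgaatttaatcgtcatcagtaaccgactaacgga
Zscan4f, chr7:11397785-11397873, plus strand: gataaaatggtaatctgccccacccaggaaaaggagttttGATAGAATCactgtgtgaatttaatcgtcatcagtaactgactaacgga
The 4 windows are near copies of each other and share the match GATAGAATC, so they are not independent instances of it. The other matches were those of Sp110, at 0.134, 0.0582 and 0.0354 CPM in WT and 0.186, 0.183 and 0.119 CPM in Double KO (change 0.20, limma, adjusted p = 0.482), and of the transporter gene Abcb5. Abcb5 stood at 0.440, 0.302 and 0.302 CPM in WT and 0.124, 0 and 0.178 CPM in Double KO (change -0.50, limma, adjusted p = 0.188).

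Of 5 deubiquitinase genes of the list, Usp26, Usp17l5, Dub1a and Dub1 fell, and Dub2a did not pass (change -0.65, limma, adjusted p = 0.123). Usp26 (ENSMUSG00000055780.4, chromosome X) was the most abundant of the 15 members that fell, and went from 13.4, 13.5 and 14.2 CPM in WT to 1.49, 2.75 and 1.19 CPM in Double KO. The Double KO values did not overlap those of WT, and the fall was 2.68 ± 0.39 (SE) on the log2 scale, or 6.40-fold (limma, adjusted p = 0.0101). The call was lost without any 1 of the WT replicates (adjusted p from 0.0740 to 0.0755). Usp17l5 had 1.02, 0.943 and 0.841 CPM in WT and no reads in Double KO (at least 15.5-fold lower), and Dub1a was at least 10.8-fold lower. Dub1 stood at 0.761, 0.518 and 0.436 CPM in WT and 0.0619, 0 and 0.0594 CPM in Double KO, just inside the threshold (limma, adjusted p = 0.0498), and Dub3, outside the list, fell by 1.67 (limma, adjusted p = 0.007).

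Predicted genes of the list were divided, with Gm8994, Gm5662, Gm8300, BB287469, Gm12794 and Gm2016 past the test and others not. Gm8994 stood at 2.54, 2.54 and 2.57 CPM in WT and 0, 0.122 and 0.0594 CPM in Double KO, from 531 reads to 3, a ratio of 42.1 with a 95% counting interval of 14.3 to 205 (change -2.45, limma, adjusted p = 0.00178). Gm5662 fell from 2.16, 1.99 and 2.58 CPM to 0.0619, 0.183 and 0 CPM, and Gm8300 from 1.97, 1.600 and 2.33 CPM to 0, 0.0612 and 0.119 CPM (limma, adjusted p = 0.00643 and 0.00643). BB287469 (ENSMUSG00000071217.2) fell by 1.77, Gm12794 by 1.48 and Gm2016 by 1.45. The members just outside the threshold were Ubtfl1 (change -1.11, limma, adjusted p = 0.0554), Gm13119 (-1.04, 0.0615), Gm13109 (-0.80, 0.0642) and Zfp352 (-1.02, 0.0716). Further from it were the predicted genes B020004J07Rik (-0.50, 0.105), Gm13078 (-0.48, 0.193), BC080695 (-0.49, 0.237) and Gm4027 (-0.18, 0.616).

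Not all members followed. P4ha2, a collagen prolyl hydroxylase and the most abundant member, stood at 19.24, 21.0 and 19.19 CPM in WT and 45.5, 33.3 and 16.9 CPM in Double KO (limma, adjusted p = 0.294), and overlapped WT. The zinc finger gene Zfp951 was at 1.17, 1.41 and 1.51 CPM in WT and 6.81, 1.53 and 35.5 CPM in Double KO, with 1 replicate far above the others (change 2.13, limma, adjusted p = 0.265). Zfp750, at 3.49, 3.58 and 4.12 CPM in WT and 3.09, 6.97 and 11.5 CPM in Double KO, and Cyp2b23, at 0.255, 0.388 and 0.370 CPM in WT and 1.052, 0.917 and 0.951 CPM in Double KO, had positive changes that did not pass (limma, adjusted p = 0.248 and 0.132). P4ha2 and Zfp750 had higher means in WT than any Zscan4 gene of the list. The summed level of all 61 entries was 66.5, 67.2 and 67.9 CPM in WT and 67.3, 47.8 and 69.3 CPM in Double KO, with overlap. The number of members that fell was 2, 7 and 2 without WT replicate 1, 2 or 3, and 10, 12 and 19 without Double KO replicate 1, 2 or 3, where 1 member was also higher without replicate 3. It was 5 with a pseudocount of 2 and 23 with DESeq2, which also called 2 members higher.

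**Figure D2:**
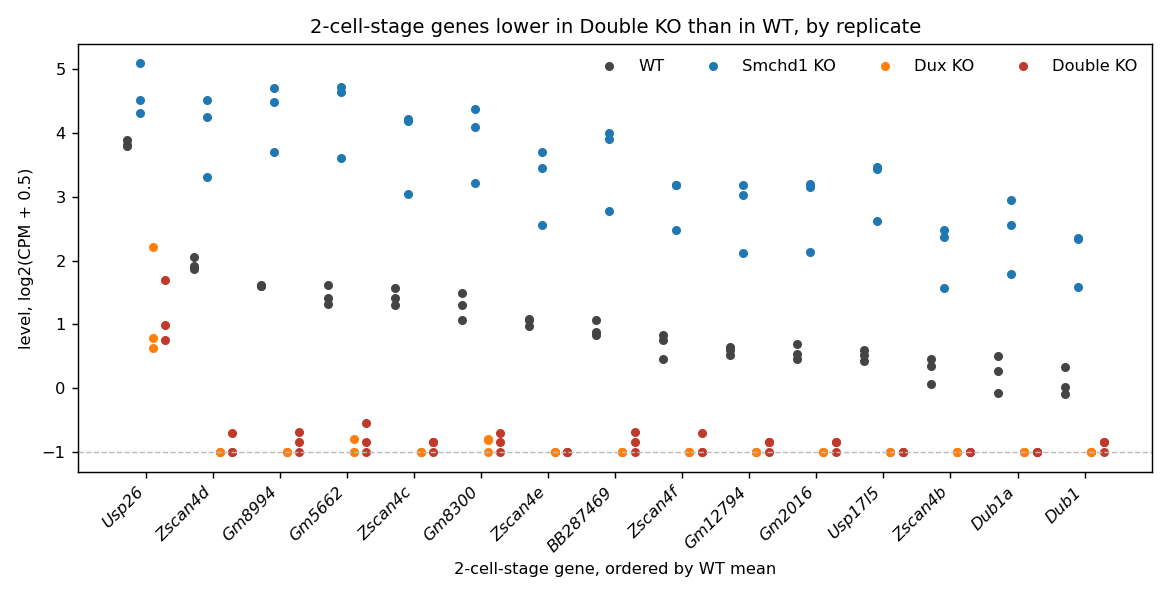
Level of the 15 2-cell-stage genes that fell, as log2(CPM + 0.5), with 1 point per sample and 1 colour per genotype; the dashed line at -1 marks no reads. In all 15 genes the 3 Double KO points lie below the 3 WT points, and the 3 Smchd1 KO points lie above WT.

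The single knockouts place these levels. Zscan4d had no reads in Dux KO and stood at 18.4, 22.4 and 9.45 CPM in Smchd1 KO. Usp26 stood at 1.04, 1.24 and 4.13 CPM in Dux KO and 33.4, 19.3 and 22.3 CPM in Smchd1 KO. Against Smchd1 KO, 31 of the 37 members were lower in Double KO and none was higher, where 2.98% of all genes were lower, with a median change of -2.54. As 14 of the 37 had a WT mean under 0.5 CPM, the filter favoured members that are high in Smchd1 KO, and this count with them. Zscan4d was lower in Double KO than in Smchd1 KO by 4.92 on the log2 scale (limma, adjusted p = 1.15e-06) and Usp26 by 3.49 (adjusted p = 0.000336). Against Dux KO, none of the 37 passed in either direction, where 0.0123% of all genes did, so the count says little about the list. The median change was 0.00, and 12 members without reads in either genotype have a difference of exactly 0. For Usp26 the difference of Double KO from Dux KO was -0.06 with an SE of 0.39, which leaves room for a difference of some size in either direction.

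Over all genes, Double KO and Dux KO differed at 2 of 16200 genes (0.0123%), 1 lower (0.00617%) and 1 higher (0.00617%). Smchd1 was lower in Double KO by 1.28 (limma, adjusted p = 0.0294). The X-linked pseudogene Wnk3-ps was higher, at 113, 107 and 126 CPM in Double KO against 47.1, 31.7 and 37.2 CPM in Dux KO, 73.9, 68.4 and 74.1 CPM in WT and 137, 94.9 and 131 CPM in Smchd1 KO (change 1.58 against Dux KO, limma, adjusted p = 0.00719; 0.67 against WT, adjusted p = 0.0558). At an unadjusted p under 0.05, 1583 genes passed. Without Double KO replicate 1, 2 or 3 the count was 0, 146 and 83, without any of the WT replicates it was 1, and DESeq2 gave 220. Double KO and Smchd1 KO differed at 709 genes (4.38%), 226 higher (1.4%) and 483 lower (2.98%) in Double KO, and at 191 to 2428 when 1 replicate was left out. These comparisons and that with WT share the Double KO samples, so their results are not independent.

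Genes outside the 2-cell-stage list were also among the largest falls. Pou2f3, a POU factor of tuft cells and epidermis, stood at 7.99, 9.28 and 8.59 CPM in WT and 1.49, 5.01 and 1.31 CPM in Double KO, and fell by 1.75 (limma, adjusted p = 0.0406). It stood at 17.8, 16.3 and 14.5 CPM in Smchd1 KO, above Double KO (limma, adjusted p = 0.00244). Ankrd34a, an ankyrin repeat gene, was at 5.88, 4.98 and 5.68 CPM in WT and 1.61, 0.856 and 1.13 CPM in Double KO and fell by 1.85 ± 0.24 (SE; limma, adjusted p = 0.007). It stood at 2.54, 2.13 and 2.29 CPM in Dux KO and 1.36, 2.43 and 1.13 CPM in Smchd1 KO. Without WT replicate 1, 2 or 3 the adjusted p was 0.178, 0.204 and 0.177 for Pou2f3 and 0.0679, 0.0505 and 0.0602 for Ankrd34a, and that of Pou2f3 was 0.102 without Double KO replicate 1.

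Among genes with a mean of at least 20 CPM over WT and Double KO, the falls with the lowest p were those of Higd2a, Nqo1, RNaseP_nuc, Mrp63 and Uqcrq. The subunit gene of respiratory complex III, Uqcrq, stood at 97.2, 104 and 95.4 CPM in WT and 44.2, 37.5 and 60.1 CPM in Double KO and fell 2.12-fold (limma, adjusted p = 0.0101). Higd2a, an assembly factor of complex IV, stood at 43.7, 45.4 and 44.2 CPM in WT and 20.7, 23.8 and 25.7 CPM in Double KO and fell 1.89-fold (limma, adjusted p = 0.00643). Mrp63, a protein of the mitochondrial ribosome, stood at 42.3, 42.7 and 41.8 CPM in WT and 26.0, 24.3 and 23.2 CPM in Double KO and fell 1.71-fold (limma, adjusted p = 0.0101). The quinone reductase gene Nqo1 fell 2.11-fold, from 52.3, 55.4 and 53.7 CPM in WT to 30.4, 25.1 and 21.2 CPM in Double KO (limma, adjusted p = 0.007). An entry named for the RNA of nuclear RNase P, RNaseP_nuc (ENSMUSG00000088025.1, chromosome 8), fell 1.80-fold, from 80.5, 90.6 and 81.2 CPM in WT to 43.4, 49.5 and 46.7 CPM in Double KO. The name is not unique to this entry, so its fall need not be that of the RNase P RNA itself. In each of these 5 genes the groups did not overlap, and all 5 kept their call with transcript-length medians centred, and lost it without any 1 of the WT replicates (limma, adjusted p from 0.0585 to 0.0992). A list of nuclear genes for mitochondrial proteins was not counted.

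Several of the largest rises were of genes under 1 CPM in WT. Ptgs2, a prostaglandin synthase gene on chromosome 1, stood at 0.779, 0.637 and 0.655 CPM in WT and 11.8, 2.32 and 5.94 CPM in Double KO and rose by 2.35 ± 0.47 (SE; limma, adjusted p = 0.0366). Cav1, which forms caveolae, was at 0.724, 0.588 and 0.587 CPM in WT and 10.02, 2.63 and 3.09 CPM in Double KO and rose by 2.12 (limma, adjusted p = 0.0496). Both had their highest value in Double KO replicate 1, and both lost their call without it (limma, adjusted p = 0.0874 and 0.105), and Cav1 also without replicate 2 (0.0544). Vcan, the proteoglycan versican, stood at 23.0, 22.5 and 24.9 CPM in WT and 89.5, 38.0 and 139.7 CPM in Double KO (change 1.72, limma, adjusted p = 0.0496; 0.115 without Double KO replicate 1). Adam12, a membrane metalloprotease, stood at 0.142, 0.172 and 0.243 CPM in WT and 4.21, 1.28 and 1.07 CPM in Double KO (change 1.79, limma, adjusted p = 0.0358). Each of these 4 lost its call without any 1 of the WT replicates (limma, adjusted p from 0.156 to 0.212).

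Genes of signalling and transport were among the 12 largest rises too. Mid1 on the X chromosome went from 1.52, 1.36 and 1.35 CPM in WT to 12, 7.22 and 3.56 CPM in Double KO (change 1.94, limma, adjusted p = 0.0246). It stood at 5.59, 8.24 and 4.79 CPM in Dux KO and 1.06, 0.966 and 1.12 CPM in Smchd1 KO, and was higher in Double KO than in Smchd1 KO (limma, adjusted p = 0.00428). The guidance factor gene Sema3e went from 17.1, 16.6 and 16.9 CPM in WT to 83.5, 45.1 and 47.8 CPM in Double KO (change 1.72, limma, adjusted p = 0.0246). The calcium pump gene Atp2b4 on chromosome 1 went from 5.48, 5.74 and 5.53 CPM in WT to 15.7, 13.3 and 33.2 CPM in Double KO (change 1.69, limma, adjusted p = 0.0164), with the highest value in replicate 3. Aim1 and Plxdc2 rose by 1.69 and 1.597. Without any 1 of the WT replicates these 5 calls were lost (limma, adjusted p from 0.0981 to 0.212), and without Double KO replicate 1 those of Sema3e, Aim1 and Plxdc2 (0.0628 to 0.104). That of Mid1 was lost without Double KO replicate 2 (0.0509).

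Among genes with a mean of at least 20 CPM over WT and Double KO samples, the rises with the lowest p were those of the cytoskeletal linker gene Dst, the protease inhibitor gene Serpine2 and the transcription factor genes Klf7 and Elf3, all on chromosome 1, and Tulp4 on chromosome 17. Dst stood at 454, 442 and 449.8 CPM in WT and 1473, 1006 and 894 CPM in Double KO (2.45-fold, limma, adjusted p = 0.0144). Serpine2 stood at 14.6, 15.6 and 16.2 CPM in WT and 38.2, 31.8 and 39.6 CPM in Double KO (2.31-fold, limma, adjusted p = 0.00791), Klf7 at 29.4, 28.3 and 27.9 CPM in WT and 69.0, 46.5 and 63.6 CPM in Double KO, Elf3 at 21.1, 23.6 and 22.03 CPM in WT and 34.4, 34.9 and 39.0 CPM in Double KO and Tulp4 at 24.0, 23.8 and 23.7 CPM in WT and 66.9, 56.5 and 39.5 CPM in Double KO. No Double KO value of the 5 genes overlapped WT. All 5 kept their call with chromosome medians centred and lost it without any 1 of the WT replicates (limma, adjusted p from 0.0585 to 0.154). Klf7 and Tulp4 lost it without Double KO replicate 1 (0.0616 and 0.0609), and Tulp4 without replicate 2 (0.0507). Tulp4 also lost its call with transcript-length medians centred. Dst and Klf7 lost theirs with transcript-length and chromosome medians centred together.

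Collagen and basement-membrane genes, the fibrous and sheet-like part of the extracellular matrix, were more often higher than lower. Of 45 tested members 7 rose and none fell, against 0.685% of all genes that rose, with a median change of 0.65 and 41 positive changes. The risers were Col3a1, Col11a1, Col6a1, Col16a1, Col22a1, Col5a1 and the laminin gene Lamb3. Col3a1 went from 0.284, 0.270 and 0.271 CPM in WT to 4.33, 2.32 and 3.27 CPM in Double KO (change 2.26, limma, adjusted p = 0.0183). Col11a1 went from 1.79, 1.72 and 2.08 CPM in WT to 9.34, 5.81 and 5.59 CPM in Double KO, and Col5a1 from 14.5, 15.3 and 15.7 CPM in WT to 61.0, 36.1 and 25.0 CPM in Double KO (limma, adjusted p = 0.0481 and 0.0405). Col6a1 went from 0.288, 0.335 and 0.410 CPM in WT to 2.85, 3.06 and 0.832 CPM in Double KO and Col16a1 from 0.941, 1.11 and 0.831 CPM in WT to 5.63, 5.81 and 1.604 CPM in Double KO, with the lowest value of both in replicate 3. The most abundant member, the laminin gene Lamc1, stood at 685, 675 and 692 CPM in WT and 1225, 524 and 559 CPM in Double KO (change 0.06, limma, adjusted p = 0.933).

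The summed level of the list was 3555, 3532 and 3608 CPM in WT and 8962, 3816 and 2538 CPM in Double KO, so replicate 3 lay below WT in the sum. The single knockouts had sums of 4321, 3833 and 7953 CPM (Smchd1 KO a, b and c) and 4382, 3944 and 6042 CPM (Dux KO). These genes are long, with a median transcript length of 5930 bases against 3146 for all tested genes. With transcript-length medians centred, 2 members rose and the median was 0.53. The count was 0 without any 1 of the WT replicates, 1 without Double KO replicate 1 or 2, and 22 without Double KO replicate 3.

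Markers of fibroblasts and feeder cells had the highest median of all lists, 0.92, with 25 of 26 positive changes, against 45.2% of all genes. Only the 3 collagen genes Col3a1, Col6a1 and Col5a1 of the list passed, against 0.685% of all genes that rose, and all 3 are in the previous list too. Fn1, the fibronectin gene and the most abundant member, stood at 827, 805 and 836 CPM in WT and 1085, 1272 and 1182 CPM in Double KO (change 0.52, limma, adjusted p = 0.0634). The fibroblast collagen gene Col1a1 was at 5.11, 4.84 and 5.31 CPM in WT and 18.7, 12.7 and 13.01 CPM in Double KO (limma, adjusted p = 0.166). Of the 32 markers in the table, 2 had no reads in Double KO and none was without reads in WT. The summed level was 1294, 1277 and 1312 CPM in WT and 2251, 1958 and 1828 CPM in Double KO, without overlap. The part of other cells in the changes of matrix genes was not tested. The median was 0.63, with no member past the test, without Double KO replicate 1. All 3 calls were also lost without any 1 of the WT replicates (limma, adjusted p from 0.107 to 0.204). These genes are long too, with a median transcript length of 4731.5 bases. With transcript-length medians centred, only Col3a1 kept its call, and the median was 0.87.

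Endoderm and trophoblast genes were high in replicate 1. In the accounts of gene lists, members that did not pass, other than the most abundant one, were chosen after their values were seen. The summed level of 30 endoderm entries was 2423, 2357 and 2448 CPM in WT and 6893, 1697 and 1342 CPM in Double KO, so replicate 1 lay above WT and the others below it. It was 2928, 2253 and 6823 CPM in Smchd1 KO a, b and c and 2658, 2077 and 4365 CPM in Dux KO. A high endoderm sum was thus not particular to Double KO replicate 1. Col4a1, a basement-membrane collagen made by endoderm, was at 1488, 194 and 78.4 CPM in Double KO against 307, 310.4 and 313 CPM in WT. The endoderm factor gene Gata4 stood at 14.5, 13.3 and 14.6 CPM in WT and 37.4, 9.48 and 4.22 CPM in Double KO, and Gata6 at 12.5, 12.1 and 12.7 CPM in WT and 25.0, 2.63 and 1.01 CPM in Double KO. None of 24 tested endoderm genes passed, and the median change was -0.20, or -1.048 without replicate 1. Trophoblast entries summed to 1059.9, 317 and 273 CPM in Double KO and 211, 222 and 214 CPM in WT. Keratins carried most of this, with Krt18 at 30.0, 33.0 and 30.7 CPM in WT and 386, 73.8 and 83.1 CPM in Double KO and Krt8 at 27.6, 28.5 and 27.0 CPM in WT and 302, 61.6 and 63.2 CPM in Double KO, above WT in all replicates but not past the test (limma, adjusted p = 0.162 and 0.139). None of 18 tested trophoblast genes passed (median 0.60).

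**Figure D3:**
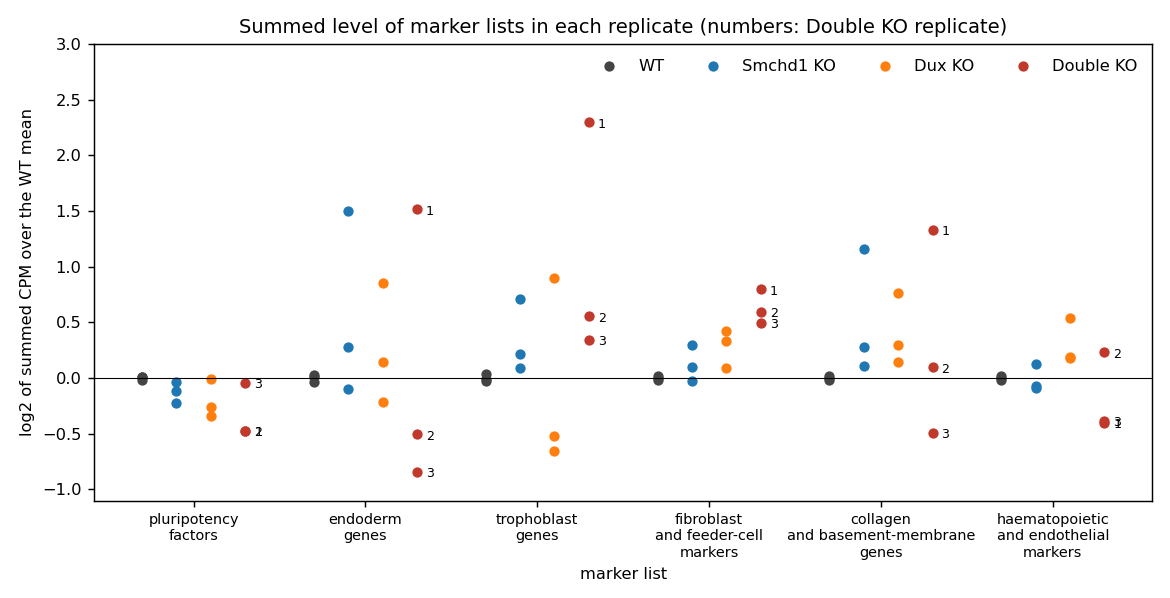
Summed CPM of marker lists in each sample, as log2 of the ratio to the WT mean, coloured by genotype, with the Double KO replicate number beside its point. Double KO replicate 1 lies highest for endoderm, trophoblast, fibroblast and collagen lists, while all 3 Double KO replicates lie above WT for fibroblast markers.

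Among genes of serine synthesis and of the amino-acid response driven by ATF4, changes were mostly negative. Of 23 tested members 3 fell and none rose, against 0.889% of all genes that fell, with a median of -0.52 and 2 positive changes. The summed level was 3825 ± 19 CPM in WT and 2744 ± 467 CPM in Double KO. It was also lower in both single knockouts, at 2501 ± 331 CPM in Dux KO and 2807 ± 117 CPM in Smchd1 KO. The median change of Double KO was 0.13 against Dux KO and -0.02 against Smchd1 KO. Cth, which makes cysteine from cystathionine, stood at 107, 105 and 107 CPM in WT and 53.6, 43.6 and 56.6 CPM in Double KO (2.07-fold lower, limma, adjusted p = 0.0358). The serine synthesis enzyme gene Psph stood at 61.1, 61.7 and 61.1 CPM in WT and 29.5, 24.6 and 46.4 CPM in Double KO (1.88-fold lower, limma, adjusted p = 0.0407). Phgdh, the first enzyme of that pathway, stood at 103, 107 and 100.4 CPM in WT and 68.4, 53.6 and 81.1 CPM in Double KO (1.54-fold lower, limma, adjusted p = 0.0437). Mthfd2 and Asns lay just outside the threshold (limma, adjusted p = 0.0503 and 0.0615), with Asns at 734, 751 and 742 CPM in WT and 522, 396 and 411 CPM in Double KO. The count was 0 without any 1 of the WT replicates or without Double KO replicate 2, 1 without Double KO replicate 1, 8 without Double KO replicate 3, and 0 with transcript-length medians centred.

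Cholesterol synthesis genes had negative changes in all 24 tested members (54.8% of all tested genes had one), but none passed, and the median was -0.55. In 20 of them all Double KO values lay below all WT values, against 21.0% of all genes. For replication-dependent histone genes, which are transcribed without polyadenylation, the median was -0.61, with 60 of 62 changes negative. Hist1h4b passed alone, from 167, 171 and 177 CPM in WT to 75.7, 85.8 and 133 CPM in Double KO (1.80-fold lower, limma, adjusted p = 0.0445), and lost its call without Double KO replicate 1 or 2 or any WT replicate (adjusted p from 0.0939 to 0.207). The histone sum was 5247, 5991 and 10414 CPM in Double KO and 9918, 10281 and 10292 CPM in WT, so replicate 3 did not share the lower level. The sum was 5592, 6693 and 8388 CPM in Dux KO and 8191, 9331 and 8163 CPM in Smchd1 KO a, b and c, so a lower sum was not particular to Double KO. These genes are short, with a median transcript length of 572 bases. With transcript-length medians centred, the median was -0.60 and 0 members passed.

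Pluripotency factors, which hold ES cells in the undifferentiated state, had a median of -0.38 with 32 of 37 changes negative, and none passed. Klf4 was nearest, at 194, 189.6 and 194 CPM in WT and 114, 107 and 114 CPM in Double KO (change -0.79, limma, adjusted p = 0.0554). Nanog stood at 395, 412 and 397 CPM in WT and 181, 330.3 and 427 CPM in Double KO, Esrrb at 489, 483 and 485 CPM in WT and 245, 356 and 467 CPM in Double KO, and Utf1 at 244, 242 and 245 CPM in WT and 164, 149 and 188 CPM in Double KO (limma, adjusted p = 0.289, 0.156 and 0.0842). Replicate 1 had the lowest Nanog and Esrrb. Replicate 3 lay above all WT values for Nanog and below them for Esrrb, Utf1 and Klf4. Of 21 DNA methylation factors none passed (median -0.13), with Dnmt3l, the cofactor of de novo methylation, at 252, 265 and 249 CPM in WT and 141, 101 and 104 CPM in Double KO (change -1.16, limma, adjusted p = 0.0583). Tet1, the most abundant, stood at 2271, 2199 and 2262 CPM in WT and 1935, 2298 and 1946 CPM in Double KO. Among 28 genes reported to regulate Dux, the only one past the test was Zscan4c, counted above, and the median was -0.30. Nucleolin, Ncl, on chromosome 1, stood at 3508, 3379 and 3533 CPM in WT and 3075, 2315 and 5972 CPM in Double KO.

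Of 14 tested genes reported as sensitive to SMCHD1 none passed in either direction, which for so short a list is near the 1.57% of all genes that passed. The median was 0.46, and 10 changes were positive, against 45.2% of all genes. Against the single knockouts the median was 0.07 for Dux KO and 0.18 for Smchd1 KO. The summed level of the list was 469 ± 2 CPM in WT and 570 ± 91 CPM in Double KO. It was 586 ± 93 CPM in Dux KO and 474 ± 22 CPM in Smchd1 KO, so the higher sum was also found in Dux KO. Igf2r, the imprinted receptor gene and the most abundant member, stood at 155, 157 and 158 CPM in WT and 217, 197 and 187 CPM in Double KO, above WT in all 3 replicates (change 0.36 ± 0.13 (SE), limma, adjusted p = 0.139). The imprinted noncoding gene Airn, which lies antisense to it, had a change of 1.53 (limma, adjusted p = 0.0868), and reads of the pair may be shared, since strand use in the counting is not given in the sources used here. Pcdha11, of the clustered protocadherins, stood at 0.504, 0.319 and 0.459 CPM in WT and 1.052, 2.45 and 0.832 CPM in Double KO (change 0.98, limma, adjusted p = 0.0801).

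Of 57 imprinted genes, Zim1, a zinc finger gene beside Peg3, rose from 1.10, 0.881 and 1.16 CPM in WT to 2.97, 3.36 and 2.20 CPM in Double KO (2.14-fold, limma, adjusted p = 0.0287) and no other passed (median 0.12), a share near the 0.685% of all genes that rose. It stood at 2.46, 2.68 and 3.08 CPM in Dux KO and 1.31, 1.63 and 1.90 CPM in Smchd1 KO, and lost its call without any 1 replicate other than Double KO replicate 3 (adjusted p from 0.0567 to 0.192). The neighbours Igf2 and H19 had changes of 2.59 and -1.82 without passing (limma, adjusted p = 0.0797 and 0.0702): Igf2 stood at 29.2, 30.3 and 30.3 CPM in WT and 521, 129.5 and 90.2 CPM in Double KO, and H19 at 25.4, 27.7 and 26.5 CPM in WT and 10.5, 13.3 and 2.44 CPM in Double KO. Peg10 varied from 525 to 4804 CPM among Double KO replicates around the WT values of 1027, 1059.6 and 1041 CPM. X-linked families Xlr, Rhox and Mage had no member past the test of 16 (median -0.28), and 46 germline genes had none (median -0.13). Tex11 stood at 38.2, 38.4 and 38.6 CPM in WT and 12.2, 20.5 and 33.9 CPM in Double KO, and Stag3 at 109.9, 115 and 108 CPM in WT and 154, 249 and 85.6 CPM in Double KO.

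Among 32 p53 targets the kinase gene Plk2 rose from 36.9, 35.4 and 37.3 CPM in WT to 111, 79.3 and 76.1 CPM in Double KO (2.37-fold, limma, adjusted p = 0.0333) and no other passed, against 0.685% of all genes that rose. The median was 0.26 with 24 positive changes, against 45.2% of all genes. The p53 ligase gene Mdm2 lay just outside the threshold, at 149, 149 and 154 CPM in WT and 254, 249.8 and 201 CPM in Double KO (limma, adjusted p = 0.0524). Plk2 lost its call without any 1 replicate other than Double KO replicate 3 (adjusted p from 0.055 to 0.192). No member passed among mesoderm (median 0.23), neural and ectoderm (0.23), epiblast (-0.07), Hox (0.00), interferon-response (0.15), Wnt target (-0.15), Nodal, FGF and BMP (-0.38), glycolysis and hypoxia (-0.24), heterochromatin (-0.16), haematopoietic and endothelial (0.44), mitochondrially encoded (0.09) and abundant noncoding RNA genes (0.20). The noncoding RNA Malat1 stood at 4649, 4368 and 4557 CPM in WT and 10875, 12473 and 5387 CPM in Double KO (limma, adjusted p = 0.0874), and at 9374, 12009.5 and 8709 CPM in Dux KO.

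**Figure D4:**
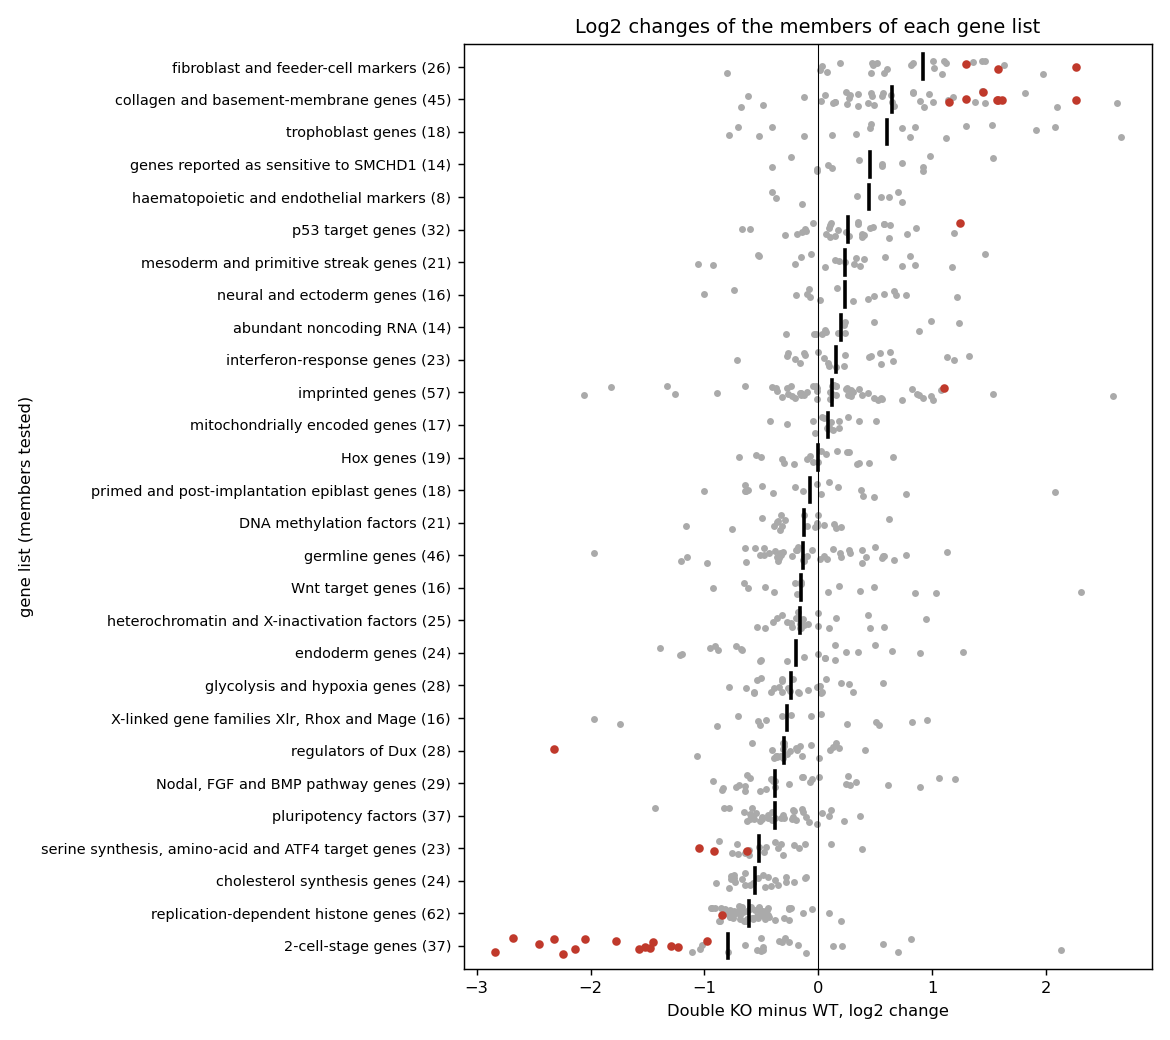
Log2 changes in Double KO against WT (horizontal axis) of the tested members of each gene list, 1 point per gene, with red points for genes past the test and a black bar at the median; numbers in brackets count the members tested. The 2-cell-stage list has the lowest median (-0.80) and the fibroblast markers the highest (0.92).

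Among WT and Double KO samples, whole chromosomes were shifted in Double KO replicate 3. The median deviation of its genes from the WT mean, relative to that of all genes, was 0.49 on chromosome 1 and -0.45 on chromosome 6, against 0.02 and -0.04 in replicate 1 and 0.02 and -0.01 in replicate 2. Other chromosomes lay within 0.15 in every WT and Double KO sample. The single knockouts held shifts of like size, on chromosome 6 in Smchd1 KO b (-0.45) and Dux KO replicate 2 (-0.41) and on chromosome 8 in Dux KO replicate 3 (-0.44). Of the 111 genes that were higher in Double KO, 24 lay on chromosome 1, where 3.31% of 846 tested genes passed, against 1.57% of all genes. With chromosome medians centred, chromosome 1 held 16 of 164 higher and 19 of 242 lower genes, and all 43 named genes kept their call.

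Changes also followed transcript length. In the shortest of 5 equal length classes (up to 1652 bases) the median change was -0.17, with 1 gene higher and 49 lower, and in the longest class (from 5061 bases) it was 0.11, with 53 higher and 3 lower. The shift had the same direction in all 3 Double KO replicates and in all 3 Dux KO replicates, and medians of WT and Smchd1 KO samples lay within 0.05 in both classes. A length was known for 96.0% of tested genes. With transcript-length medians centred, 51 genes were higher and 68 lower, 13 members of the 2-cell-stage list fell, and 25 of the 43 named genes kept their call. Ptgs2, Cav1, Vcan, Adam12, Pou2f3, Zim1, Cth, Psph and Phgdh were among the 18 that did not. The part of RNA quality or library preparation in this shift was not tested.

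**Figure D5:**
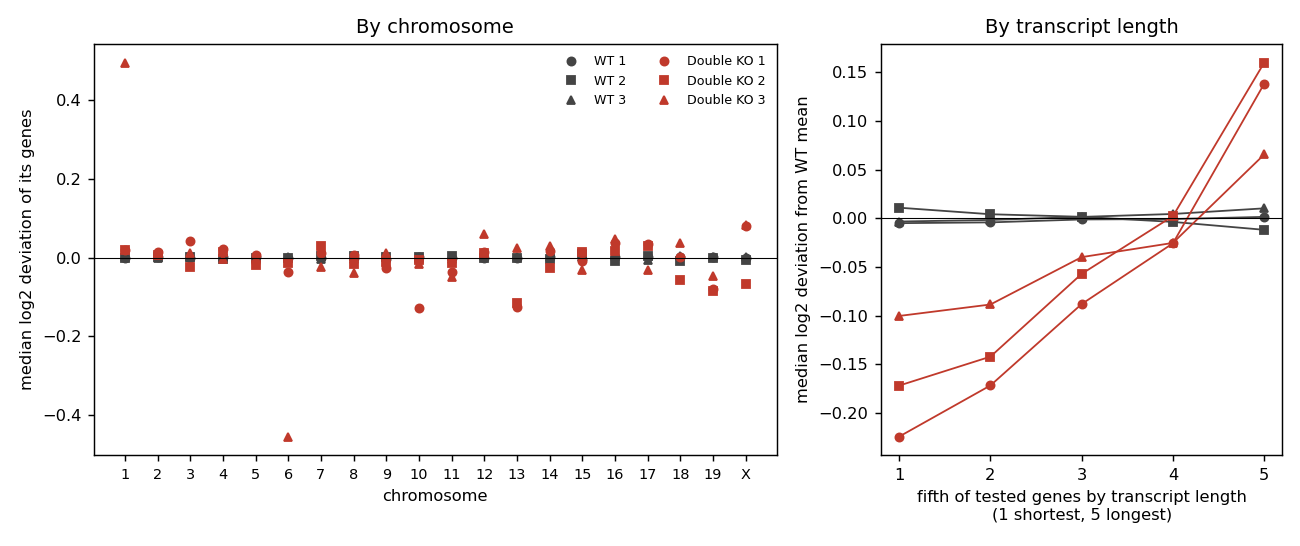
Left, median log2 deviation from the WT mean of the genes of each chromosome, relative to all genes, with 1 symbol per WT and Double KO replicate. Right, median log2 deviation from the WT mean in 5 equal classes of the tested genes by transcript length. Double KO replicate 3 stands out at 0.49 on chromosome 1 and -0.45 on chromosome 6, and all 3 Double KO replicates rise from the shortest to the longest class.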

How the data were processed

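RNA was sequenced as total RNA after ribosomal RNA depletion, per the labels' protocols. The submitters' processing notes name Trim Galore, STAR 2.5.1, limma 3.38.2 and mm9. The deposited signal values are gene counts divided by the authors' effective library size (CPM). They were whole multiples of 1 read for 100% of the low values tested, within 0.1 read, and recovered reads entered edgeR and DESeq2 as alternatives. Technical runs were averaged. Smchd1 KO columns carry no run labels and were paired by how little they differed, as Smchd1 KO a, b and c. A gene needed 0.5 CPM or more in 3 or more of the 12 samples and was then tested with limma 3.58.1 in R 4.3.3 (trend, log2(CPM + 0.5), Benjamini-Hochberg). Alternatives used edgeR 4.0.16 and DESeq2 1.42.0. The fit was also run on simulated counts, with the same dispersion for all samples of a gene and no chromosome or length shifts. That run cannot show how the test behaves with the unequal spread of WT and Double KO. Chromosome and transcript length came from GENCODE M21 by gene identifier, promoter windows from RefSeq GRCm38.p6. The named genes are the targeted genes, the 12 largest rises and 12 largest falls without overlap, up to 4 members past the test and the most abundant member of each list, the 5 rising and 5 falling genes of lowest p with a mean of at least 20 CPM over WT and Double KO, and the 8 2-cell-stage genes highest in WT. A gene that this rule names is not reported here. Members and lists were chosen with earlier results of these data known. A second table was not used here, nor its 3 columns of no sample.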

Additional observations from a re-analysis of the deposited data

How the results depend on the processing

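Double KO against WT gave 255 genes past the limma test, and 152 with quantile normalization, 39 in a fit to WT, Dux KO and Double KO, 2439 and 387 with quality weights per sample and per genotype, 522 and 157 with technical run 1 or run 2 of WT alone, 406 with chromosome medians centred, 555 with edgeR and 2008 with DESeq2. The count ranged from 2 to 3006 when 1 replicate was left out. Same-numbered WT and Double KO samples had correlations of 0.06, 0.23 and 0.07, and those with different numbers had -0.13 to 0.06. WT replicates 2 and 3 correlated best with their own number. WT replicate 1 was nearly level between Double KO replicates 1 (0.0560) and 3 (0.0565). Same-numbered Dux KO and Double KO samples had correlations of 0.07, 0.47 and -0.13, and those with different numbers had -0.37 to 0.20. These values do not settle whether equal numbers are pairs, and the main fit took no pairing. With a replicate block the count was 23 for WT and Double KO alone and 24 with Dux KO. Other alternatives were chosen after seeing the data: transcript-length medians centred (119), transcript-length and chromosome medians centred (219), and without samples with a strong chromosome shift (6762), which are Double KO replicate 3, Dux KO replicates 2 and 3 and Smchd1 KO b. The last leaves 1 Dux KO sample, which is assumed to vary like the other groups. Double KO against Dux KO gave 2 genes, and 12 without a filter, 1 and 0 with weights per sample and per genotype, 220 with DESeq2, 1 with length and 4 with length and chromosome centring, 3364 without shifted samples, and 0 to 146 when 1 replicate was left out. Double KO against Smchd1 KO gave 709, and 2673 and 424 with these weights, 2456 with DESeq2, 5806 without shifted samples, and 191 to 2428 when 1 replicate was left out. The 15 lower 2-cell-stage genes became 5 with a pseudocount of 2, 9 with the replicate block, 8 with weights per genotype, 23 with DESeq2, and 2 to 19 when 1 replicate was left out. The cause of these differences was not tested. No named gene past the test changed direction under any alternative. The median of a list changed sign under 11 alternatives for Hox genes, 4 each for endoderm and epiblast genes, 3 for germline genes, 2 for X-linked families and 1 each for DNA methylation factors, haematopoietic markers and Wnt targets. For a gene without reads in Double KO, a level of up to 3 reads over its libraries cannot be detected.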
